A study of Homo sapiens with 12 samples.

Results

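The solute carriers (SLC) expressed in A375 cells, a human melanoma line, were described by the substrates they carry. A member was any gene symbol in the deposited expression table that starts with SLC and a digit and that reached 1 FPKM (fragments scaled by transcript length and library size) in at least 3 of the 12 libraries. The members were thus chosen by their measured level over all libraries, whatever the group, and their levels are a description. Of 367 such symbols in the table, 207 were members and 160 were not, of which 22 were listed at 0 in every library. The members lay on 206 of the 15055 loci that passed the same filter, since SLC35E2 and SLC35E2B share 1 locus. Just inside the filter, the third highest library of SLC26A7 stood at 1.06 FPKM and that of SLC22A17 at 1.27 FPKM. Just outside it, that of SLC9A7P1 stood at 0.971 FPKM and that of SLC19A3 at 0.96 FPKM.

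A375 cells had been transduced with an MSCV-IRES-Hygro retroviral vector and selected with hygromycin, with 3 libraries in each of 4 groups. The Control cells carried the empty vector. The other cells carried YAP-S127A, YAP-S127A,S94A or YAP-2SA (S127A,S381A), each driven by the viral long terminal repeat, and all were cultured on plastic for 24 h by the series' design text, whereas the study's methods give a longer time. Each group was 1 transduced population whose replicates were plated separately, so the p-values measure the spread between platings. One label field of the YAP-2SA libraries also lists S94A, whereas their titles do not, and the titles were used. YAP is a transcriptional co-activator restrained by the LATS kinases of the Hippo pathway. S127A removes a LATS site that holds YAP in the cytoplasm, S381A removes one that marks it for degradation, and S94A abolishes binding to the TEAD transcription factors.

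Solute carriers move ions, nutrients, metabolites and cofactors across the plasma membrane and the membranes of organelles, as exchangers, co-transporters or facilitative carriers. Tumor cells draw on them for the import of amino acids and glucose and the export of lactate, and pigment cells use a few of them within melanosomes. Many work in pairs or with a chaperone, and many couple their substrate to the sodium gradient.

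YAP1 mRNA, which counts both the native gene and the vector, stood at 34.1 and 33.0 FPKM in the first and second Control libraries but at 172 FPKM in the library labelled Control replicate 3. The 9 libraries that carry a YAP vector lay between 130 and 187 FPKM. This library thus goes against its label in the vector gene, and each result that rests on Control is given with it and checked without it. Read depth is unknown because the table holds no counts, and the summed FPKM of a library ranged from 790865 to 901558. Of 10 melanocyte lineage markers searched, 9 were in the table and 4 were tested. SOX10, the neural crest factor of melanocytes, averaged 263 FPKM in Control and 6.16 FPKM in YAP-2SA, and S100B and S100A1 were also lower in YAP-2SA, whereas MITF was higher. PMEL, MLANA, TYR, DCT and TYRP1 stayed below 1 FPKM in every library. The summed marker level was 365 to 454 FPKM in Control, 270 to 348 in YAP-S127A, 444 to 465 in YAP-S127A,S94A and 43.1 to 52.2 in YAP-2SA. It moved with the YAP-2SA results below, and its part in them was not tested. The 8 markers of epithelium, blood and endothelium in the table summed to 6.44 to 7.85 FPKM in Control, 6.72 to 11.5 in YAP-S127A, 7.25 to 7.62 in YAP-S127A,S94A and 2.33 to 2.39 in YAP-2SA. Of these, 2 keratins were tested: KRT14 was lower in YAP-2SA (a mean of 0.434 against 6.87 FPKM) and KRT5 higher (1.56 against 0.0282 FPKM), and their part in the results was not tested either. In such bulk libraries, fewer cells of a type and less RNA per cell cannot be told apart.

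The members spanned the whole range of expression. The median of their mean levels was 9.87 FPKM, near the 9.76 FPKM of all loci tested. There were 12 members with a mean of at least 100 FPKM and 104 below 10 FPKM, and 191 of the 207 reached 1 FPKM in all 12 libraries. The summed level of all member loci was 5189 to 5552 FPKM in Control, 5255 to 6098 in YAP-S127A, 5202 to 5386 in YAP-S127A,S94A and 5909 to 6314 in YAP-2SA. Replicates lay close together for most members, with a median coefficient of variation of 8.69% in Control, 9.84% in YAP-S127A, 7.12% in YAP-S127A,S94A and 8.29% in YAP-2SA. The locus of SLC25A15, the mitochondrial ornithine carrier, which also lists MIR621, ranged more widely, from 14.1 to 254 FPKM within Control. In all, 33 members sit on a locus that lists other symbols, and their level cannot be assigned to the transporter alone. The highest of all, the SLC34A3 locus at a mean of 441 FPKM, also lists TUBB4B, a beta-tubulin, and RNF224. Next came SLC25A5, an ADP/ATP exchanger of the inner mitochondrial membrane, at 394 FPKM, the phosphate carrier SLC25A3 at 336 FPKM and SLC3A2, the heavy chain of the heteromeric amino acid transporters, at 232 FPKM. SLC25A5 and SLC25A6 have close homologs, and how multi-mapping reads were treated is not stated in the sources used here.

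By family number and known substrate, 199 members were classed as transporters and 8 were not. Whether each of the 199 codes for a working carrier was not checked. The largest classes were the mitochondrial carriers with 37 members, the carriers of inorganic ions with 35, of amino acids with 25, of metals with 24 and of nucleotide sugars with 23. Smaller ones carry sugars (14), organic ions and peptides (12), vitamins and cofactors (11), carboxylates (8), lipids (6) and nucleosides (4). The 8 others are regulators, scaffold proteins, an opposite-strand gene and pseudogenes that share the name. The YAP-2SA cells were compared with the Control cells to ask how a YAP free of both LATS sites changes transcription. In this and the following comparisons, a member was called higher or lower at an adjusted p under 0.05 in limma with Benjamini-Hochberg adjustment over all 15055 loci tested. Differences are of mean log2(FPKM + 1), and they understate the change of members below a few FPKM. Each SE is that of the limma fit with 3 libraries a group. The fit pools the spread of a locus over all 12 libraries and draws it toward that of loci of similar level. The SE is thus not the spread of the compared groups alone. In YAP-2SA against Control, 52 of 207 members were higher (25.1%) and 50 were lower (24.2%). Of all loci tested, 22.9% were called higher and 19.5% lower, each somewhat below the share of the members, and this difference was not tested. The median log2 difference was -0.01 over the members and 0.01 over all loci. Without the library labelled Control replicate 3, the members' counts were 52 and 48 (25.1% and 23.2%), whereas the shares of all loci went down to 19.8% and 17.2%. Among the 174 members alone on their locus, 44 were higher and 45 lower. With a fold of group means over 2 as a second threshold, 17 members were higher and 18 lower, or 8.21% and 8.70%, where 7.59% and 7.86% of all loci passed.

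**Figure D1:**
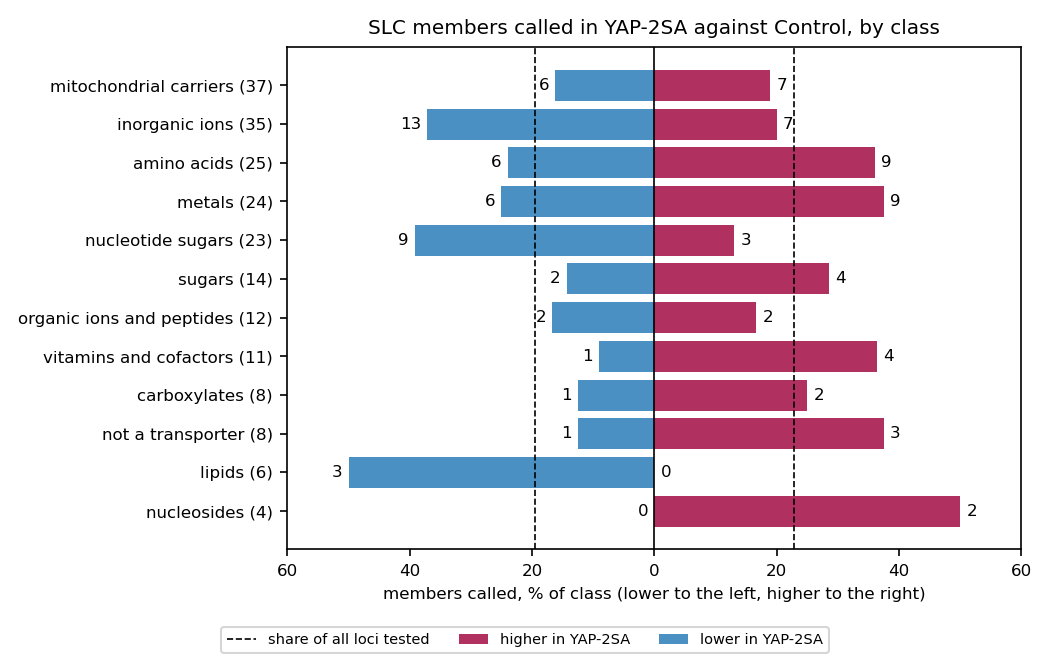
Share of each class of SLC members called higher (right) or lower (left) in YAP-2SA against Control, in percent of the class, with the number of members beside each bar and the class size in parentheses. Dashed lines mark the shares of all loci tested, 22.9% higher and 19.5% lower. Amino acid carriers had 9 members higher and 6 lower, inorganic ion carriers 7 and 13, and nucleotide sugar carriers 3 and 9. Without the library labelled Control replicate 3, 4 amino acid carriers were lower.

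The balance of higher and lower calls varied between classes, where 22.9% of all loci were higher and 19.5% lower. Among amino acid carriers, 9 of 25 were higher (36.0%) and 6 lower (24%), with a median log2 difference of 0.15. Among carriers of inorganic ions, 7 of 35 were higher (20%) and 13 lower (37.1%), with a median of -0.11. Among carriers of nucleotide sugars, 3 of 23 were higher (13.0%) and 9 lower (39.1%), with a median of -0.16. The metal carriers had 9 higher and 6 lower of 24, the mitochondrial carriers 7 and 6 of 37, and the sugar carriers 4 and 2 of 14. Without the library labelled Control replicate 3, the amino acid carriers had 9 higher and 4 lower. The metal carriers then had 8 and 6 and the mitochondrial carriers 7 and 5, and the other classes named here kept their counts. These shares are descriptions of classes of 4 to 37 members, and no class was tested against the others.

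Of the amino acid carriers higher in YAP-2SA, several exchange or import large neutral, glutamine or cationic amino acids, but not every carrier of these substrates rose. SLC7A5 (LAT1, chr16:87863629-87903113 on the minus strand in GRCh37), the light chain that exchanges leucine and other large neutral amino acids, stood at 132, 109 and 106 FPKM in Control and at 298, 228 and 295 FPKM in YAP-2SA. All 3 YAP-2SA libraries lay above every Control library, and the log2 difference was 1.23 ± 0.14 (SE, limma adjusted p = 3.53e-05). In YAP-S127A it stood at 202, 163 and 214 FPKM, between the Control and YAP-2SA libraries, and in YAP-S127A,S94A at 90.4, 106 and 91.8 FPKM. Its partner SLC3A2 (CD98hc), which brings the light chains to the surface, stood at 186, 206 and 165 FPKM in Control and at 352, 314 and 385 FPKM in YAP-2SA. The groups did not overlap and the log2 difference was 0.91 ± 0.12 (limma adjusted p = 0.000131). SLC1A5 (ASCT2), a sodium-dependent exchanger of glutamine, stood at 114, 96.1 and 93.0 FPKM in Control and at 182, 158 and 176 FPKM in YAP-2SA, again without overlap (log2 difference 0.77 ± 0.09, limma adjusted p = 5.87e-05). The sodium-coupled glutamine and alanine importers SLC38A1 and SLC38A2 were higher by 0.65 ± 0.09 and 0.71 ± 0.07. SLC38A2 stood at 84.7, 84.1 and 85.8 FPKM in Control and at 128, 154 and 138 FPKM in YAP-2SA.

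SLC7A1 (CAT1), the main importer of arginine and lysine, varied little within groups. It stood at 28.5, 25.2 and 25.7 FPKM in Control, 24.7, 27.1 and 24.3 in YAP-S127A,S94A, 37.7, 36.1 and 37.7 in YAP-S127A and 57.5, 57.4 and 58.8 in YAP-2SA. Its log2 difference in YAP-2SA against Control was 1.10 ± 0.06 (limma adjusted p = 9.65e-08). SLC1A3, a glial glutamate and aspartate transporter, stood at 3.45, 5.91 and 5.47 FPKM in Control and at 17.6, 27.3 and 24.7 FPKM in YAP-2SA, a log2 difference of 2.03 ± 0.18 (limma adjusted p = 6.40e-06). Its relative SLC1A1, the glutamate and cysteine transporter of neurons and epithelia, went the other way, from 10.8, 10.1 and 17.7 FPKM to 1.23, 1.59 and 2.25 FPKM. That fall of 2.34 on the log2 scale (SE 0.19, limma adjusted p = 2.88e-06) was 2.11 without the library labelled Control replicate 3, whose 17.7 FPKM was the highest. SLC38A4, an importer of neutral amino acids, reached 1 FPKM in the YAP-2SA libraries alone, at 1.53, 1.76 and 2.48 FPKM, against at most 0.359 FPKM elsewhere. It is a member only through that group, so its difference is not given as a result, though the counts of calls include it.

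The cystine importer SLC7A11 (xCT), the partner of SLC3A2 in glutathione supply, did not follow the other light chains. It stood at 9.49, 10.2 and 8.13 FPKM in Control and at 4.15, 5.11 and 6.20 FPKM in YAP-2SA, a fall of 0.75 on the log2 scale (SE 0.13, limma adjusted p = 0.000946) with no overlap. SLC6A15, a neuronal importer of branched-chain amino acids, fell by 0.70 on the log2 scale. SLC38A7, a glutamine carrier, was lower by a log2 difference of -0.26 ± 0.08 (limma adjusted p = 0.0179), a call lost without the library labelled Control replicate 3 (0.0664). The cationic amino acid carrier SLC7A2 (limma adjusted p = 0.499) and the large neutral amino acid carriers SLC43A1 (0.118) and SLC43A2 (0.172) were not called. SLC6A15 and these 4 were named after their values were seen. SLC1A4 (ASCT1), a serine and alanine exchanger, was lower by a log2 difference of -0.42 ± 0.14 (limma adjusted p = 0.0334), a call lost without the library labelled Control replicate 3 (0.0988), without Control replicate 1 and without any 1 of the YAP-2SA libraries. The summed level of the amino acid carriers was 695 to 758 FPKM in Control, 830 to 956 in YAP-S127A, 654 to 699 in YAP-S127A,S94A and 1140 to 1280 in YAP-2SA. SLC3A2, SLC7A5, SLC1A5 and SLC38A2 made up 64.8% to 68.3% of that sum in Control and 75.0% to 78.0% in YAP-2SA. Without these 4, the other members summed to 234 to 245 FPKM in Control and 271 to 286 FPKM in YAP-2SA.

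**Figure D2:**
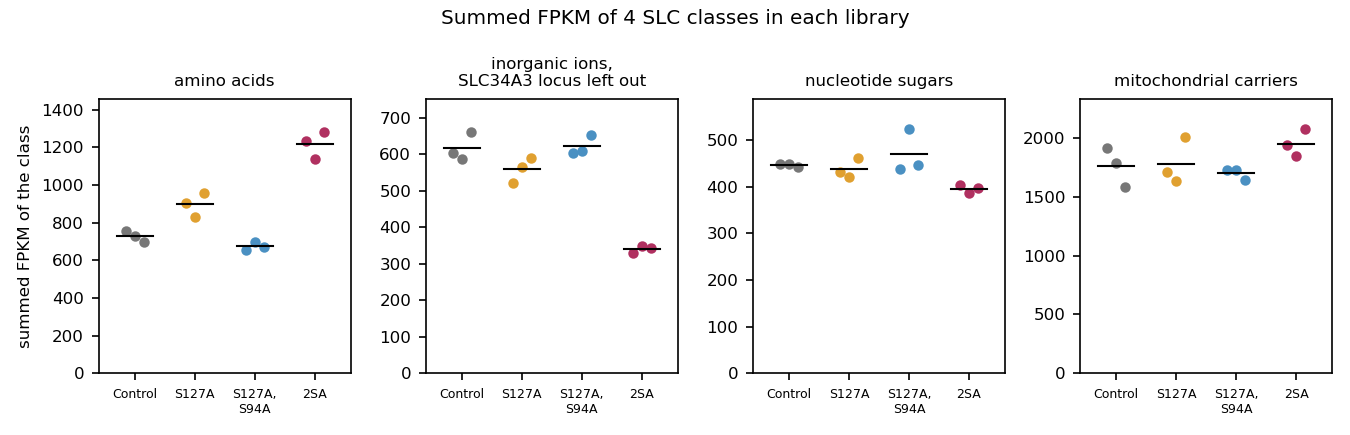
Summed FPKM (vertical axis, from 0) of the members of 4 classes in each library, by group on the horizontal axis, with a bar at the group mean. The locus that SLC34A3 shares with TUBB4B and RNF224 is left out of the inorganic ions. The amino acid carriers summed to 1140 to 1280 FPKM in the 3 YAP-2SA libraries and to 695 to 758 FPKM in the Control libraries, whereas the inorganic ion carriers summed to 331 to 349 FPKM and 587 to 660 FPKM, a difference that lies mostly in SLC26A2 and SLC20A1.

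The largest fall of any member was that of a carrier of inorganic ions. SLC26A2 (chr5:149340321-149373018 on the plus strand in GRCh37), the sulfate transporter that feeds the sulfation of proteoglycans, was one of the most abundant carriers in Control, at 194, 155 and 223 FPKM. In YAP-2SA it stood at 7.67, 7.42 and 7.75 FPKM, a mean of 0.0399 times that of Control and a fall of 4.46 on the log2 scale (SE 0.13, limma adjusted p = 1.35e-09). In YAP-S127A it stood at 152, 148 and 128 FPKM, all below the Control libraries, but this difference was not called (limma adjusted p = 0.108). In YAP-S127A,S94A it stood at 193, 162 and 207 FPKM, within the range of Control. Its relatives SLC26A4 and SLC26A10 were also lower in YAP-2SA. SLC26A4 (pendrin), an iodide and chloride exchanger, stood at 2.55, 1.45 and 6.36 FPKM in Control and was listed at 0 in all 3 YAP-2SA libraries. SLC26A10 stood at 13.6, 11 and 9.86 FPKM in Control and at 2.70, 2.34 and 2.30 FPKM in YAP-2SA, a fall of 1.85 on the log2 scale (SE 0.12, limma adjusted p = 5.39e-07). Of the 7 members of the family, 4 were lower and 0 higher, where 19.5% of all loci were lower and 22.9% higher.

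The sodium and calcium exchangers moved in opposite directions. SLC8A1 (NCX1, chr2:40324410-40838193 on the minus strand in GRCh37), which expels calcium across the plasma membrane, stood at 0.696, 0.664 and 0.656 FPKM in Control and at 7.57, 9.01 and 7.20 FPKM in YAP-2SA. The group means differed 11.8-fold, with a log2 difference of 2.41 ± 0.11 (limma adjusted p = 2.61e-08). In YAP-S127A it stood at 2.21, 2.55 and 1.75 FPKM and in YAP-S127A,S94A at 0.472, 0.549 and 0.472 FPKM, so the 4 groups did not overlap. SLC8A1 reached 1 FPKM in the YAP-S127A and YAP-2SA libraries alone, so it is a member only through the groups where it is high. Its fold rests on Control levels below the filter, and its differences here and in the comparisons below carry these limits. SLC24A5, the potassium-dependent exchanger of melanosomes and a determinant of skin color, stood at 2.62, 5.99 and 6.59 FPKM in Control and at 16.7, 18.1 and 22.1 FPKM in YAP-2SA (log2 difference 1.78 ± 0.25, limma adjusted p = 0.000202). SLC24A6 (now SLC8B1), the sodium and calcium exchanger of mitochondria, rose by 1.52 ± 0.20 on the same scale. In contrast, SLC24A3, a potassium-dependent exchanger, stood at 5.32, 10.5 and 8.84 FPKM in Control and at 0, 0.0512 and 0.0432 FPKM in YAP-2SA, a fall of 3.12 on the log2 scale (SE 0.25, limma adjusted p = 2.38e-06). Its neuronal relative SLC24A2 stood at 0.905, 3.55 and 1.43 FPKM in Control and at 0.0338, 0.0182 and 0.0210 FPKM in YAP-2SA. SLC45A2, a further melanosomal carrier, missed the filter with at most 0.437 FPKM and was listed at 0 in all 3 YAP-2SA libraries.

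Chloride and phosphate carriers moved in either direction in YAP-2SA. SLC12A2 (NKCC1), the sodium, potassium and chloride importer of cell volume control, stood at 13.8, 11.2 and 12.4 FPKM in Control and at 4.68, 3.59 and 3.95 FPKM in YAP-2SA (log2 difference -1.41 ± 0.12, limma adjusted p = 5.24e-06). SLC12A7 (KCC4), a potassium and chloride exporter, stood at 8.14, 7.59 and 6.99 FPKM in Control and at 2.07, 2.37 and 1.92 FPKM in YAP-2SA (log2 difference -1.46 ± 0.08, limma adjusted p = 1.24e-07). The locus of SLC12A4 (KCC1), another exporter of this kind that shares its locus with LCAT, went up from 11.8, 11.5 and 9.67 FPKM to 20.1, 23.4 and 19.1 FPKM (0.87 ± 0.09, limma adjusted p = 1.32e-05). SLC20A1 (PiT-1), a sodium-dependent phosphate importer, stood at 132, 152 and 154 FPKM in Control and at 59.5, 74.4 and 66.9 FPKM in YAP-2SA (log2 difference -1.12 ± 0.13, limma adjusted p = 4.11e-05). SLC9A7, a sodium and proton exchanger of the Golgi network, fell by 1.0 on the log2 scale. SLC4A11, a borate-transporter relative that conducts protons and water, rose by 0.98 ± 0.08. The summed level of this class without the SLC34A3 locus was 587 to 660 FPKM in Control and 331 to 349 FPKM in YAP-2SA. SLC26A2 and SLC20A1 made up most of this difference, with 307 to 377 FPKM in Control and 67.2 to 81.8 FPKM in YAP-2SA, and the other members summed to 278 to 283 and 263 to 269.8 FPKM. With that locus, itself higher in YAP-2SA by 0.64 ± 0.11, the sums were 990 to 1026 and 914 to 963 FPKM.

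Carboxylate and sugar carriers included the exporters and importers of glycolytic tissue. SLC16A3 (MCT4), the lactate exporter of glycolytic cells, stood at 5.70, 9.18 and 7.85 FPKM in Control and at 22.6, 25.0 and 26.3 FPKM in YAP-2SA (log2 difference 1.60 ± 0.20, limma adjusted p = 0.000101). SLC16A1 (MCT1), the widely expressed lactate transporter, stood at 50.2, 47.9 and 45.2 FPKM in Control and at 54.8, 50.3 and 55.4 FPKM in YAP-2SA, a difference that was not called (0.16 ± 0.06, limma adjusted p = 0.0699). SLC16A4, a relative of less certain substrate, fell by 1.08 on the log2 scale with no overlap, from 8.67, 8.65 and 9.48 FPKM to 3.6, 4.03 and 3.44 FPKM. SLC2A1 (GLUT1), the glucose importer, stood at 58.4, 48.7 and 46.5 FPKM in Control and at 98.6, 88.6 and 94.9 FPKM in YAP-2SA (log2 difference 0.87 ± 0.11, limma adjusted p = 8.27e-05). SLC2A3 (GLUT3), a glucose importer of high affinity, was at 10.8, 12 and 10.4 FPKM in Control and at 11.8, 15.4 and 11.8 FPKM in YAP-2SA, with overlapping groups (limma adjusted p = 0.25). BSG, the chaperone of both lactate transporters, was higher by 0.23 ± 0.07 (limma adjusted p = 0.029), and this call was lost without the library labelled Control replicate 3 (0.0532).

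Of the nucleotide sugar class, the SLC35 family of the Golgi and endoplasmic reticulum and its less studied relatives, 9 of 23 were lower in YAP-2SA. This was 8 of 22 loci, since SLC35E2 and SLC35E2B share 1, where 19.5% of all loci were lower. SLC35F1 stood at 3.50, 3.05 and 3.34 FPKM in Control and at 0.189, 0.223 and 0.213 FPKM in YAP-2SA (log2 difference -1.83 ± 0.08, limma adjusted p = 1.64e-08). SLC35F3, a relative linked to thiamine transport, had the largest rise of any member. It stood at 0.776, 0.744 and 1.66 FPKM in Control, 0.556, 0.716 and 0.639 in YAP-S127A,S94A, 4.15, 3.22 and 4.57 in YAP-S127A and 11.4, 11.8 and 13.3 in YAP-2SA (2.70 ± 0.16 in YAP-2SA against Control, limma adjusted p = 2.86e-07). The highest Control value, 1.66 FPKM, was that of the library labelled Control replicate 3. That library aside, SLC35F3 reached 1 FPKM in the YAP-S127A and YAP-2SA libraries alone. It is thus a member through the groups where it is high. Its differences here and in the comparisons below carry this limit. SLC35B2, the Golgi importer of the sulfate donor PAPS, was named after its values were seen. It stood at 51.7, 51.6 and 53.5 FPKM in Control and at 28.4, 31.3 and 30.2 FPKM in YAP-2SA, with 1 YAP-S127A,S94A library at 124 FPKM that widened the shared spread. Its log2 difference of -0.79 ± 0.25 (limma adjusted p = 0.0295) was not called without the library labelled Control replicate 3 (0.0725).

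Among metal carriers, the SLC39 (ZIP) importers of zinc, iron and manganese were divided, with 4 of 11 higher and 4 lower. Of all loci, 22.9% were higher and 19.5% lower. SLC39A4, the zinc importer of the intestine, stood at 10.0, 9.88 and 10.9 FPKM in Control and at 27.6, 29.9 and 27.1 FPKM in YAP-2SA (log2 difference 1.37 ± 0.12, limma adjusted p = 5.83e-06). SLC39A11 went from 10.2, 9.25 and 11.6 FPKM to 4.25, 3.86 and 4.6 FPKM (log2 difference -1.11 ± 0.14, limma adjusted p = 0.000105). The abundant SLC39A1 and the zinc and iron importer SLC39A14 were higher by 0.35 ± 0.05 and 0.32 ± 0.05, small steps that exceeded their spread. SLC30A1, the zinc exporter of the plasma membrane, was at 14.1, 9.25 and 10.4 FPKM in Control and at 11, 5.00 and 9.07 FPKM in YAP-2SA, with overlapping groups (limma adjusted p = 0.26).

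Of the 37 mitochondrial carriers, 7 were higher (18.9%) and 6 lower (16.2%), where 22.9% of all loci were higher and 19.5% lower. The most abundant carrier of the class was not called. The ADP/ATP exchanger SLC25A5 stood at 399, 401 and 353 FPKM in Control and at 422, 414 and 405 FPKM in YAP-2SA (limma adjusted p = 0.226). SLC25A6, another ADP/ATP exchanger, differed by 0.09 ± 0.07 (limma adjusted p = 0.301), whereas SLC25A4, the isoform of heart and muscle, fell by 0.59 on the log2 scale. Of the calcium-regulated carriers of ATP-Mg and phosphate, SLC25A24 and SLC25A23 were higher, and SLC25A25, named after its values were seen, was not called (0.23 ± 0.11, limma adjusted p = 0.129). SLC25A24 stood at 19.4, 21.0 and 19.6 FPKM in Control and at 51.8, 44.1 and 50.2 FPKM in YAP-2SA (log2 difference 1.24 ± 0.08, limma adjusted p = 5.06e-07). SLC25A23 stood at 11.2, 7.42 and 9.66 FPKM in Control and at 23.8, 19.6 and 29.8 FPKM in YAP-2SA (1.28 ± 0.25, limma adjusted p = 0.00204). SLC25A45, a carrier of the same family, fell from 5.35, 5.23 and 6.33 FPKM to 1.11, 0.933 and 1.12 FPKM (log2 difference -1.69 ± 0.08, limma adjusted p = 4.22e-08).

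The smaller classes held fewer calls. SLC19A1, the reduced folate carrier, stood at 11.3, 10.9 and 9.56 FPKM in Control and at 17.9, 15.4 and 16.5 FPKM in YAP-2SA (log2 difference 0.61 ± 0.09, limma adjusted p = 0.0003). The vitamin transporter SLC5A6, for biotin and pantothenate, was not called (limma adjusted p = 0.0918) but was lower once the library labelled Control replicate 3 was left out (0.0234). SLC43A3, a purine base transporter whose locus also lists PRG2, was higher by 0.38 ± 0.05, and the nucleoside transporter SLC29A1 (ENT1) was not called (0.24 ± 0.15, limma adjusted p = 0.222). Of 6 members in the lipid class, the fatty acid transport proteins SLC27A1, SLC27A3 and SLC27A4 were lower, by 0.71, 0.54 and 0.23 in log2 difference, and 0 were higher. These 3 were named after their values were seen. Of all loci, 19.5% were lower and 22.9% higher. SLC22A15, an organic ion transporter, stood at 0.856, 0.935 and 1.10 FPKM in Control and at 2.38, 2.38 and 2.35 FPKM in YAP-2SA (0.78 ± 0.11, limma adjusted p = 0.000228). SLC2A4RG, a regulator of a glucose transporter gene and no carrier itself, rose by 1.08 ± 0.09, and the creatine transporter pseudogene SLC6A10P fell by 1.13 on the log2 scale.

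**Figure D3:**
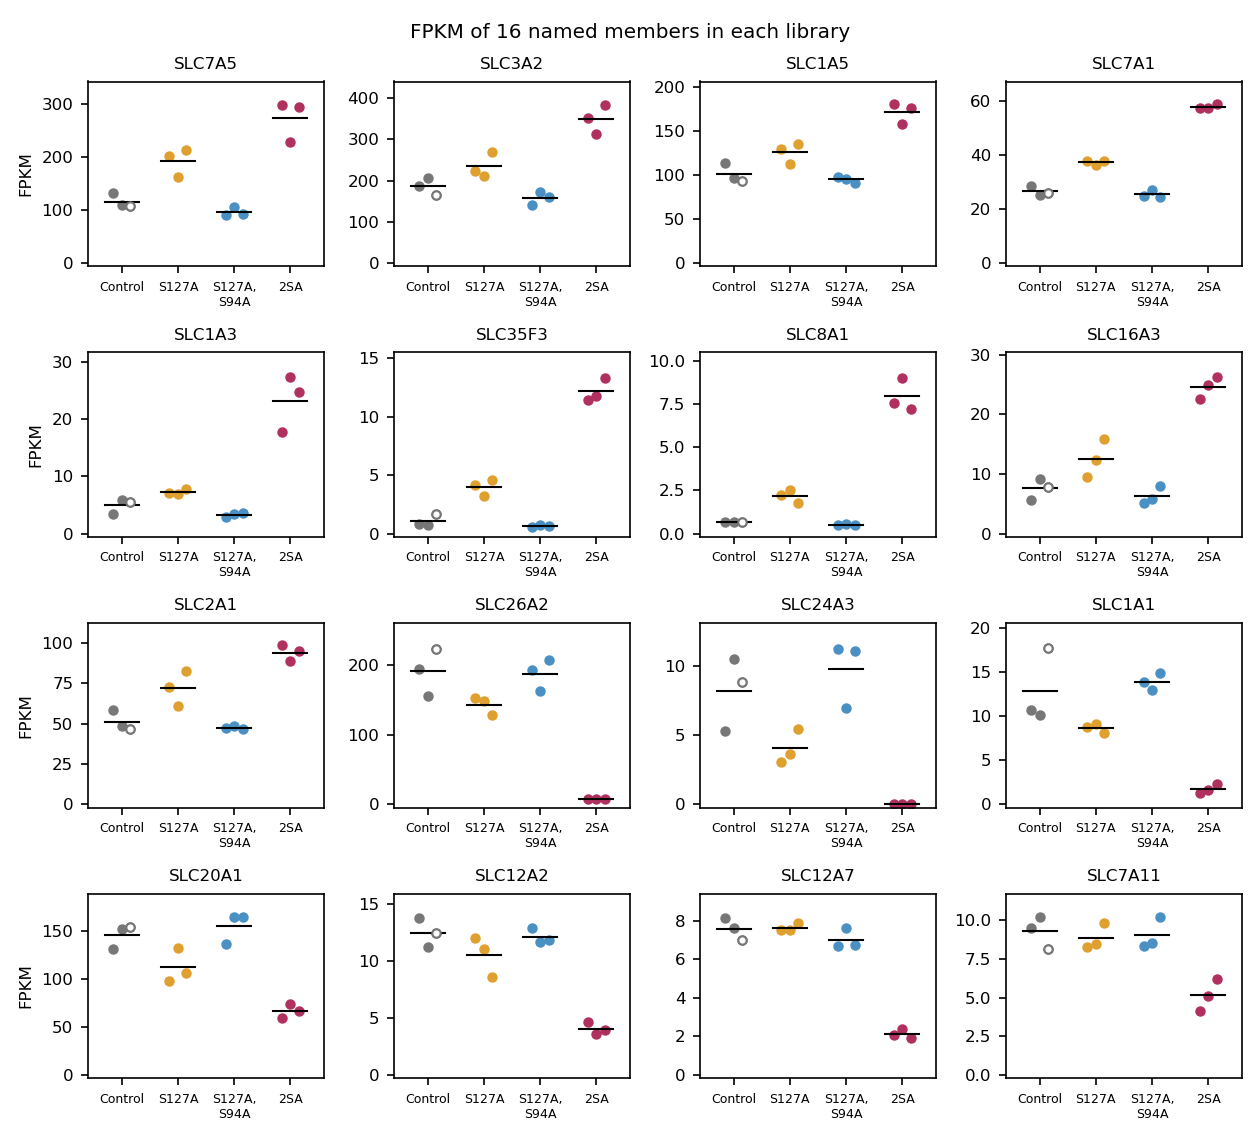
FPKM (vertical axes, linear, from 0) of 16 named members in each library, by group on the horizontal axes, with a line at the group mean. The open circle is the library labelled Control replicate 3. The YAP-2SA libraries of SLC26A2 sit between 7.42 and 7.75 FPKM, whereas those of the other groups sit at 128 FPKM or more, and for SLC7A1 and SLC8A1 the YAP-S127A libraries lie between those of Control and YAP-2SA.

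TEAD factors bind the sequence CATTCC or its complement, and promoters of the members that moved were searched for it on either strand, in the 250 bases before and 50 bases after each start as given by RefSeq on GRCh38.p14. Promoters were matched for 167 of the 207 members. The motif was in 1 of 14 matched promoters of the members higher past both thresholds in YAP-2SA (7.14%), in 1 of 13 of those lower (7.69%), in 16 of 167 of the matched members (9.58%) and in 4928 of all 35116 promoters (14.0%). The 250 bases before the start of 4 members are shown, picked after their values were seen: SLC25A23, the member past both thresholds upward that held the motif, SLC8A1 and SLC7A5, which were higher in both the YAP-2SA and the YAP-S127A cells, and SLC26A2, which fell most. Capitals mark the motif.
SLC25A23 (chr19:6459793-6460042, minus strand): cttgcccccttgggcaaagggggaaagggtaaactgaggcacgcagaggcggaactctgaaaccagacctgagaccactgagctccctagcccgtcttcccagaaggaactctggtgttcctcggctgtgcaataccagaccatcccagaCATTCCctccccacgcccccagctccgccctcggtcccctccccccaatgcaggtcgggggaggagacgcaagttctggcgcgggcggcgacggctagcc
SLC8A1 (chr2:40512436-40512685, minus strand): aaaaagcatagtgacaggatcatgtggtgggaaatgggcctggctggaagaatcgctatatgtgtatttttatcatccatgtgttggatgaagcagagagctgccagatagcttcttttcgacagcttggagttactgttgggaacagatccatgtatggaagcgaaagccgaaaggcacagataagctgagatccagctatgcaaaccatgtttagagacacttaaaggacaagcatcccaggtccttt
SLC7A5 (chr16:87869508-87869757, minus strand): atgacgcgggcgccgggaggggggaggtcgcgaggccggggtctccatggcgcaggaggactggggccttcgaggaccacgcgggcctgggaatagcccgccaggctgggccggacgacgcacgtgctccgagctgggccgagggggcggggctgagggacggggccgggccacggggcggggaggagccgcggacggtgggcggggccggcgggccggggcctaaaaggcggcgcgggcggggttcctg
SLC26A2 (chr5:149960508-149960757, plus strand): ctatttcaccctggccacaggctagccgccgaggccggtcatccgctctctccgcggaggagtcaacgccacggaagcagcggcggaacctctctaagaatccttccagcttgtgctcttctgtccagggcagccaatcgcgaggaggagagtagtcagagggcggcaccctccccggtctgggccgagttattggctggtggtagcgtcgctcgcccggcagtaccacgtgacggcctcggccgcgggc
In SLC25A23 the motif began at position -100 from the start, on the strand shown. Its absence from the other windows says only that these letters are not in them.

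YAP-S127A was compared with Control to ask what the loss of the cytoplasmic retention site alone changes. In it, 9 of 207 members were higher (4.35%) and 0 were lower, where 4.56% of all loci were higher and 1.75% lower. At an unadjusted p under 0.05, limma gave 46 of 207 members, where it gave 2953 of the 15055 loci tested. The 9 were SLC35F3, SLC8A1, SLC7A5, SLC7A1, SLC48A1, SLC12A4, SLC2A1, SLC2A4RG and SLC7A5P2. SLC35F3 rose by 1.29 ± 0.16 (limma adjusted p = 0.000809) and SLC8A1 by 0.92 ± 0.11 (limma adjusted p = 0.00049), the only members past a fold of 2. SLC7A5 rose by 0.73 ± 0.14 (limma adjusted p = 0.00964) and SLC7A1 by 0.48 ± 0.06 (limma adjusted p = 0.000633). SLC48A1, a heme transporter of lysosomes named after its values were seen, stood at 6.06, 6.29 and 6.15 FPKM in Control and at 7.82, 10.5 and 9.91 FPKM in YAP-S127A (0.53 ± 0.10, limma adjusted p = 0.0115). SLC2A1 stood at 72.8, 61.2 and 82.7 FPKM in YAP-S127A, above the Control libraries (0.48 ± 0.11, limma adjusted p = 0.0247). Without the library labelled Control replicate 3, 6 members were called, and SLC2A1 (0.0904), SLC2A4RG (0.0903) and SLC7A5P2 (0.117) were not. Fitted on the libraries of these 2 groups alone, 5 members were called.

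YAP-S127A,S94A was compared with Control to ask what YAP changes without TEAD binding. In it, 0 of 207 members were called in limma, where 0.179% of all loci were, and 0 were called without the library labelled Control replicate 3. At an unadjusted p under 0.05 in limma, there were 7 of 207 members, where there were 661 of the 15055 loci tested. Of the 9 members that rose in YAP-S127A, 6 overlapped the Control libraries here, as SLC12A4 did with 11.1, 10.8 and 11.1 FPKM against 11.8, 11.5 and 9.67 FPKM. The other three lay below all Control libraries without being called: SLC35F3 (log2 difference -0.30 ± 0.16), SLC7A5 (-0.26 ± 0.14) and SLC8A1 (-0.16 ± 0.11). SLC26A4, at 4.44, 3.93 and 4.98 FPKM, lay within the range of Control.

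YAP-2SA was compared with YAP-S127A to ask what the added loss of the degradation site changes. In it, 47 members were higher (22.7%) and 47 lower (22.7%), where 18.3% of all loci were higher and 14.5% lower. Fitted on these 2 groups alone, 31 were higher. SLC8A1 (1.5 ± 0.11), SLC35F3 (1.41 ± 0.16) and SLC1A3 (1.54 ± 0.18) were higher in YAP-2SA than in YAP-S127A, as were SLC7A1 (0.63 ± 0.06) and SLC7A5 (0.50 ± 0.14). SLC26A2 was lower by 4.06 ± 0.13 (limma adjusted p = 6.68e-09), the largest difference of a member here as well. SLC12A7, at 7.52, 7.50 and 7.89 FPKM in YAP-S127A, and SLC35F1, at 3.14, 3.40 and 3.23 FPKM, had levels in YAP-S127A close to those in Control and were lower in YAP-2SA by 1.47 ± 0.08 and 1.82 ± 0.08. SLC38A2 likewise stood at 89.7, 89.1 and 77.7 FPKM in YAP-S127A and was higher in YAP-2SA by 0.71 ± 0.07 (limma adjusted p = 3.07e-05).

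YAP-S127A was compared with its form that cannot bind TEAD to ask which differences need that contact. In it, 21 members were higher (10.1%) and 3 were lower (1.45%), where 6.36% of all loci were higher and 4.31% lower. The 21 included 5 of 25 amino acid carriers. SLC7A5 was higher by 0.99 ± 0.14 (limma adjusted p = 0.00113), SLC3A2 by 0.57 ± 0.12 (limma adjusted p = 0.0134), SLC1A5 by 0.40 ± 0.09 (limma adjusted p = 0.0194), SLC7A1 by 0.54 ± 0.06 (limma adjusted p = 0.000215) and SLC1A3 by 0.94 ± 0.18 (limma adjusted p = 0.00821). Among the other classes, SLC35F3 was higher by 1.60 ± 0.16 (limma adjusted p = 0.000145), SLC8A1 by 1.07 ± 0.11 (limma adjusted p = 0.000125), SLC16A3 by 0.88 ± 0.20 (limma adjusted p = 0.0206) and SLC2A1 by 0.59 ± 0.11 (limma adjusted p = 0.00651). The 3 lower members were SLC24A3 (-1.09 ± 0.25, limma adjusted p = 0.018), SLC20A1 (-0.47 ± 0.13, limma adjusted p = 0.0417) and SLC16A4 (-0.34 ± 0.09, limma adjusted p = 0.0418). The higher count was 10 when replicate 1 of the YAP-S127A,S94A group was left out and 12 when replicate 3 was, and with these 2 groups fitted alone it was 10. The lower count was 0 once replicate 1 of YAP-S127A or replicate 3 of YAP-S127A,S94A was dropped, and 1 once replicate 1 or 2 of YAP-S127A,S94A or replicate 3 of YAP-2SA was dropped. SLC20A1 was also not called without the library labelled Control replicate 3, which enters this fit through the shared spread alone (limma adjusted p = 0.0525).

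This comparison shares no library with YAP-2SA against Control, and their calls were set side by side. Both take the spread of a locus from all 12 libraries, so the calls are not fully independent. Of the 21 members higher in YAP-S127A than in YAP-S127A,S94A, 19 were also higher in YAP-2SA than in Control, or 90.5% of the 21 and 36.5% of the 52. SLC24A1, the photoreceptor exchanger of sodium, calcium and potassium, was among those that were not. All 3 lower members were also lower in YAP-2SA than in Control, or 6.0% of the 50. The matching shares over all loci were not computed, so neither overlap can be called particular to the members. The most extreme fall, that of SLC26A2, was not among the calls here, where it stood at 152, 148 and 128 FPKM against 193, 162 and 207 FPKM (limma adjusted p = 0.0889).

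**Figure D4:**
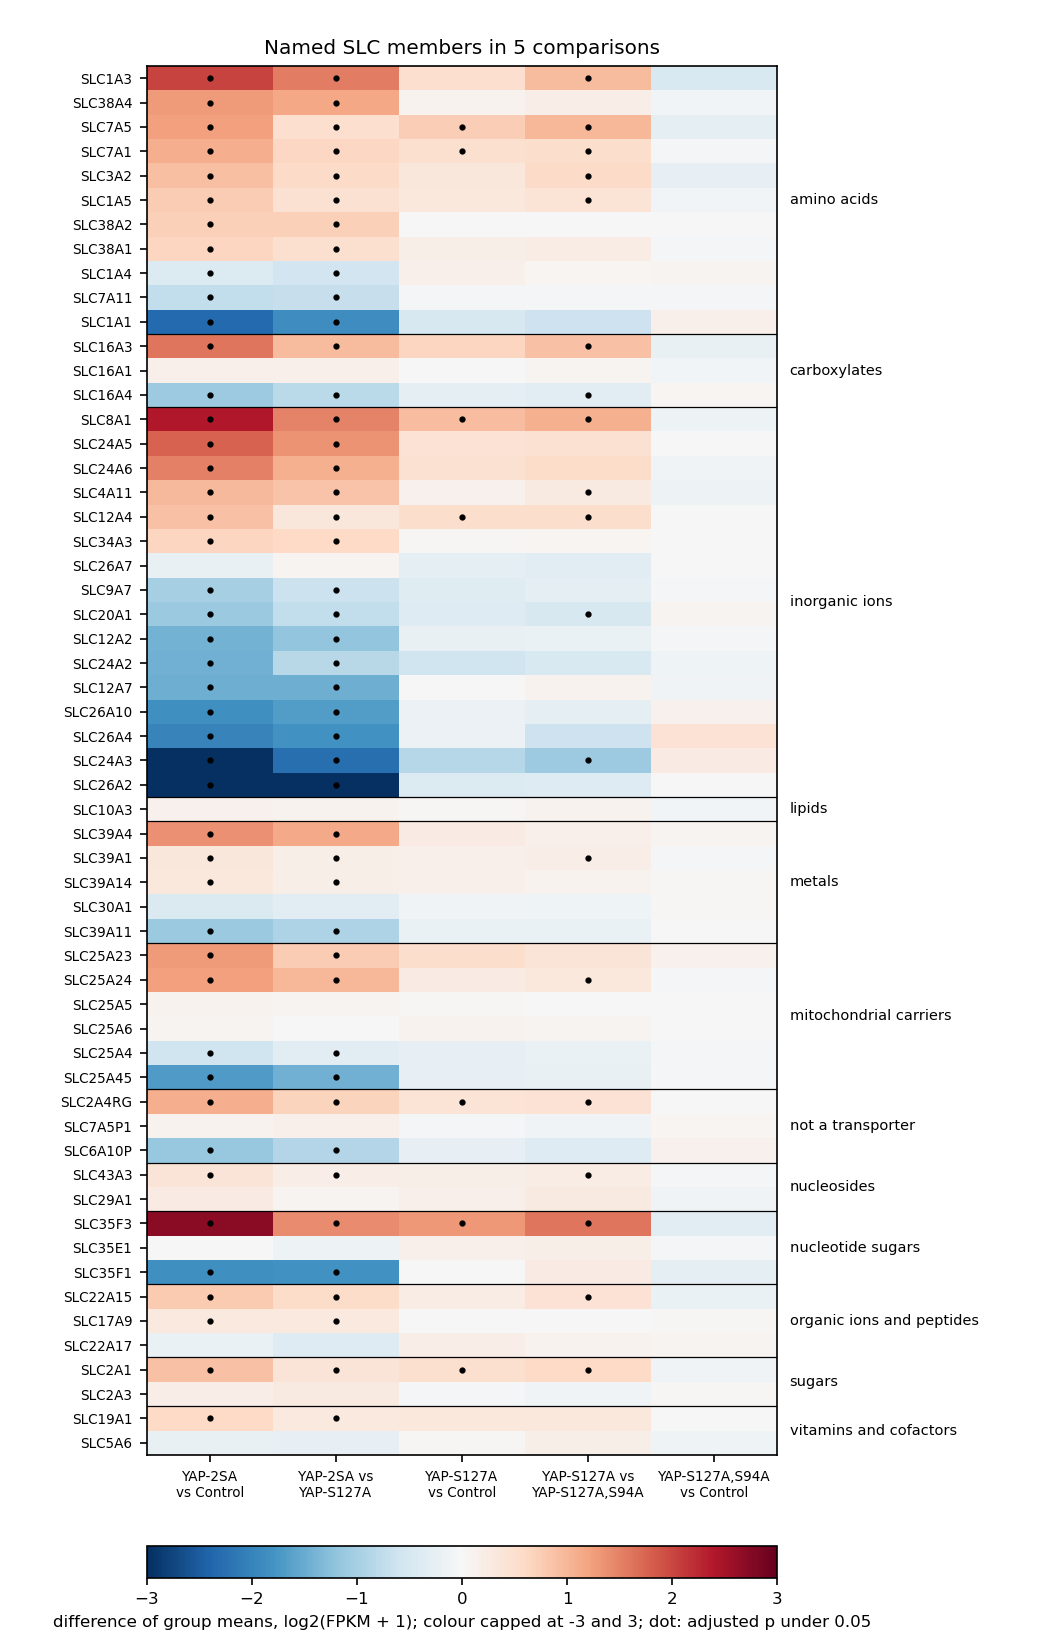
Differences of group means in log2(FPKM + 1) for 57 named members (rows, by class) in 5 comparisons (columns), red for higher and blue for lower in the first group named, with the color capped at 3 in either direction. Dots mark an adjusted p under 0.05 in limma. The columns of YAP-S127A,S94A against Control hold no dot, and SLC7A5, SLC7A1, SLC8A1, SLC12A4, SLC2A4RG, SLC35F3 and SLC2A1 hold one in each of the other 4.

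Genes that work with the solute carriers were listed as well. Of 9 chaperones and regulators of SLC proteins tested, 6 were higher and 1 lower in YAP-2SA against Control, where 22.9% and 19.5% of all loci were. Without the library labelled Control replicate 3, 4 were higher, and BSG and STK39, a kinase of chloride transporters, were not called. OXSR1, a related kinase, rose by 0.66 ± 0.05 (limma adjusted p = 2.08e-06), the ubiquitin ligase NEDD4L by 1.05 ± 0.20 (limma adjusted p = 0.00192), and the kinase SGK1 fell by 0.75 on the log2 scale. Of 14 transporters tested that carry other symbols, 2 were higher and 4 lower. ANKH, a membrane exporter of pyrophosphate and ATP, stood at 42.9, 48.1 and 56.6 FPKM in Control and at 5.68, 6.0 and 5.48 FPKM in YAP-2SA (log2 difference -2.89 ± 0.11, limma adjusted p = 9.27e-09), and the mitochondrial carrier UCP2 was higher by 1.63 ± 0.15. Of 28 ABC transporters, the pumps driven by ATP, 7 were higher and 8 lower, counting ABCA5 and ABCA10 on 1 shared locus as 2, and 5 were higher and 8 lower without that Control library.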

How the data were processed

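RNA from A375 cells was sequenced in 12 libraries of 4 groups, mapped from their titles. The authors deposited 1 table of log2(FPKM + 1) per assembled locus. Per the submitters' processing notes and the methods, reads were demultiplexed with bcl2fastq 2.15.0, aligned to hg19 with Bowtie2 2.0.0 and TopHat2 2.0.4 and summarised with Cufflinks 2.0.2. FPKM scales by transcript length and library total, so a large shift in a few genes moves all others, and read depth cannot be recovered. The treatment of reads that map to several places is not given in the sources used here.

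Of 31588 rows, 3 identical ones were removed. Loci with FPKM of at least 1 in at least 3 of the 12 libraries were tested (15055) in limma 3.58.1 (R 4.3.3) with 1 mean per group over all libraries, an intensity trend, 2-sided p-values and Benjamini-Hochberg adjustment over all loci. The smallest 2-sided exact permutation p of 3 against 3 libraries is 0.1, so none was used. The fit was tested on simulated data. Where a symbol had several loci, the one of highest mean was taken. Members, classes, gene lists and alternatives were chosen with earlier results of these data known. SLC7A6OS was moved to the non-transporters after its values were seen.

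Members were named by rule: the 15 largest rises and 15 largest falls in YAP-2SA against Control past both thresholds with separate groups, the most abundant member of each class, a fixed list of well-studied carriers (some results are not reported here), the 5 of smallest p in each direction in the comparisons with YAP-S127A, and those just inside the filter. The alternatives were a pseudocount of 0.1, an FPKM minimum of 5, no filter, median-ratio and quantile scaling, the compared libraries alone, no trend, loci of 1 symbol, a replicate block and each library left out. Counting transporters alone was added after seeing the data. No batch is given in the labels. Promoter sequences are from RefSeq on GRCh38.p14 and gene coordinates from GENCODE on GRCh37. Summaries used Python 3.11.15 with pandas 2.3.3 and figures matplotlib 3.10.9.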

Additional observations from a re-analysis of the deposited data

How the results depend on the processing

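The counts of SLC members higher (52) and lower (50) in YAP-2SA against Control, those past both thresholds (17 and 18), the count lower in YAP-2SA against YAP-S127A (47) and the 0 of YAP-S127A,S94A against Control stayed within 1.5 times under every alternative run. With the compared libraries alone, 31 instead of 47 members were higher in YAP-2SA against YAP-S127A, 10 instead of 21 in YAP-S127A against YAP-S127A,S94A, and 5 instead of 9 in YAP-S127A against Control, with fewer libraries behind the spread. Lower in YAP-S127A against Control were 2 members with the replicate block and 1 with no trend instead of 0. Lower in YAP-S127A against YAP-S127A,S94A were 8 with the replicate block and 1 with no filter instead of 3, and the cause was not tested. The replicate block changed no other count by over 1.5 times. Same-numbered libraries correlated between -0.149 and 0.163 over 18 pairs, and differently numbered ones between -0.119 and 0.189. Pairs of replicate 1 were all above 0, whereas those of replicates 2 and 3 lay on either side of 0. With 3 libraries a group, these values cannot decide whether the numbers pair the libraries.

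Leaving out 1 library at a time gave, in YAP-2SA against Control, 51 to 57 higher and 44 to 56 lower members, and 17 to 19 in either direction past both thresholds. In YAP-2SA against YAP-S127A it gave 33 to 49 higher and 33 to 48 lower, in YAP-S127A against Control 6 to 10 higher and 0 to 2 lower, and in YAP-S127A against YAP-S127A,S94A 10 to 23 higher and 0 to 4 lower. The lower count of YAP-S127A against Control was 2 without Control replicate 1 or YAP-S127A replicate 2. For single named members, 1552 of 1590 alternative values kept their call, 31 lost it, 7 gained one and 0 reversed. With 3 libraries a group and no read counts, members near 1 FPKM are the least certain.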
